A study of Mus musculus with 10 samples.

Results

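A set of 10 immediate early genes was followed through the ovaries of 10 mice: Fos, Fosb, Jun, Junb, Egr1, Egr2, Atf3, Ier2, Nr4a1 and Dusp1. They were taken by gene symbol from a table of 55487 mouse genes and all 10 were found there. The 4 Control ovaries came from mice aged 8 weeks, and the 3 Aged and 3 Aged+CF ovaries from mice labelled 11 months old, an age that the study's methods give as slightly younger. All mice had a C57BL/6J background, and in every group the ovaries were removed 48 h after an injection of 10 IU of PMSG, a gonadotropin with FSH-like activity that drives follicle growth. Aged+CF mice had been given repeated tail vein injections of 200 μL of CEFFE at 3 μg/μL, which is a liquid prepared from adipose tissue from which the cells have been removed. By the study's methods, Control and Aged mice received saline in its place. The ovaries are named here by group and by the replicate number of the labels, so that Control 32 is the Control ovary with number 32.

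Immediate early genes are transcribed within minutes of a stimulus, from factors already present in the cell, and their transcripts are short-lived. Fos, Fosb and Atf3 pair with Jun or Junb into AP-1 and related dimers, Egr1 and Egr2 are zinc finger factors, and Nr4a1 (Nur77) is an orphan nuclear receptor. Dusp1 is a phosphatase that switches MAP kinases off again, and Ier2 encodes a small nuclear protein of less settled role. In the ovary, gonadotropins acting through cAMP and MAP kinases are known to induce these genes in granulosa and theca cells, and Egr1 and Nr4a1 are well-known targets of the ovulatory LH signal.

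The promoters of the members are shown first because short elements near the start site are known to take part in the induction of such genes. RefSeq promoter entries on GRCm38.p6 were found for 8 of the 10 genes, all but Egr1 and Ier2, with several starts for Egr2. The 250 bases before each start were searched on both strands. A gene was counted where any of its promoters held the motif, for members and for all 27025 genes alike. The cAMP response element half-site TGACG was present in 7 of 8 members, all but Jun, against 19.8% of all genes. It lies within the full element TGACGTCA, which 1 of 8 members held, against 1.77%. The CArG box bound by serum response factor was found in 1 of 8 members against 1.62%, the EGR site GCGNGGGCG in 2 of 8 against 5.33%, the AP-1 site TGANTCA in 0 of 8 against 7.82%, the TATA box TATAAA in 1 of 8 against 14.3%, and the GC box GGGCGG, which can overlap the EGR site, in 7 of 8 against 35.4%. These are matches of letters in a window and do not show that a factor was bound. Bases farther upstream were not searched, so a gene without a match can still hold the motif there. In the stretches below, capitals mark the half-site or full cAMP response element, the CArG box or the EGR site, on either strand. Nr4a1 is shown for its 4 half-sites beside an EGR site (chr15:101266596-101266845, plus strand, the 250 bases before the start), Fos for its half-sites above the TATA box (chr12:85473740-85473889, plus strand, the last 150 bases), Egr2 for the CArG box between half-sites (chr10:67537739-67537868, plus strand, the last 130 bases before 1 of its annotated starts), and Dusp1 for the full element (chr17:26508573-26508672, minus strand, 100 bases that begin 200 bases before the start). None of these bases lies in an exon of its gene in GENCODE M21.
Nr4a1: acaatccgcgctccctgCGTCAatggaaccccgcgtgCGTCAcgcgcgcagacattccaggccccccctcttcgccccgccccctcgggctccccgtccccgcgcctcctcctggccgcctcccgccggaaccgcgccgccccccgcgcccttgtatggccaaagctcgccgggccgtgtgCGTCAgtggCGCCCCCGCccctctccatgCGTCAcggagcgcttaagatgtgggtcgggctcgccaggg
Fos: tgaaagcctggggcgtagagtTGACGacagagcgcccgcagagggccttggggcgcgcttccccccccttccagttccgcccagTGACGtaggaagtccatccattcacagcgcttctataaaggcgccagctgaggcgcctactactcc
Egr2: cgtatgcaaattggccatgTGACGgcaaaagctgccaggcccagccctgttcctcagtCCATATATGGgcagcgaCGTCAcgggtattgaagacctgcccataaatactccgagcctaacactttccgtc
Dusp1: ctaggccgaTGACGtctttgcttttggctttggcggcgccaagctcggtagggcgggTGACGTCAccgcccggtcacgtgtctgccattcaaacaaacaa

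Each ovary had its own library, in which the authors had counted between 15761789 and 21318254 reads on genes. Levels are given as CPM, read counts scaled to library size by TMM, and all 10 members passed the filter on low counts that left 18956 genes for testing. As a check of the tissue, every granulosa and theca marker was detected in every ovary, and of the oocyte markers only Figla was at 0, in Aged 33, although most of them, all but Gdf9 and Ooep, were under 1 CPM in Aged 34. The summed level of 10 oocyte markers was 348.1 to 473.4 CPM in Control, 11.74 to 98.12 CPM in Aged and 133.6 to 204.7 CPM after CEFFE, and that of 8 granulosa markers was 4318 to 7224, 3223 to 3790 and 2379 to 4145 CPM, so these markers differed between the groups too. At adjusted p, edgeR called 3 of 5 theca, 3 of 3 luteal and 5 of 5 erythroid markers higher in Aged vs Control, while the theca marker Insl3 had a log2 fold change of -1.38. In whole ovaries, fewer cells of a type and less RNA per cell cannot be told apart. Aged 34 also held 170.5 CPM of B and plasma cell markers, against 3.128 to 18.31 CPM in the other ovaries. Oviduct markers were high in Aged 34 and Control 33, at 282.3 and 336.9 CPM, and none of the neutrophil markers passed the filter. The labels do not say whether anything but age and treatment differed between ovaries, and p-values below measure the spread between the ovaries of a group.

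Control 32 stood apart from the other Control ovaries in most of these genes. Its level was at least 2-fold above the mean of Control 31, 33 and 34 for 7 of the 10 members, against 1.37% of all genes tested. It was the highest Control ovary for 9 of 10 members, against 30.1% of genes. It was also the highest of all 10 ovaries for 7 members, a count for which no share over all genes was taken. Averaged over the members, log2 CPM in Control 32 lay 1.43 above each gene's mean over the 10 ovaries, whereas Control 33 and Control 34 lay at -0.60 and -0.88 and Control 31 at 0.01. The Aged ovaries lay at -0.31, -0.47 and -0.03 and the Aged+CF ovaries at 0.57, 0.01 and 0.28. By this average, Control held both the highest and the lowest ovaries of the study. Counts of members, and several fold changes against Control, are therefore given with and without Control 32. That ovary was singled out by the members' own values, so shares of all genes without it are not an even background for the members.

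**Figure D1:**
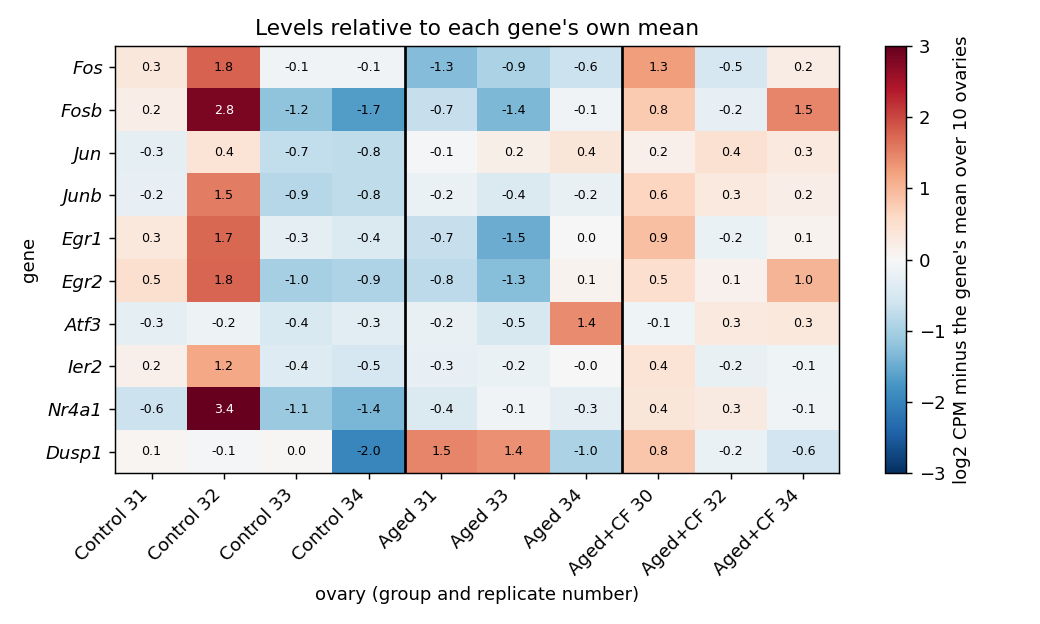
Heat map of the 10 genes (rows) in the 10 ovaries (columns, with black lines between Control, Aged and Aged+CF). Colours and numbers give log2 CPM minus the gene's own mean over the 10 ovaries. Control 32 is red for 8 of the rows, with the deepest colour at Nr4a1 and Fosb, while Atf3 stands out in Aged 34 and Dusp1 in Aged 31 and Aged 33.

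Compared per length, as CPM per kb of exon, Jun was the most abundant member in every group. Its median was 44.4 among Control ovaries, 71.5 among Aged and 77.1 among Aged+CF ovaries. Ier2 and Egr1 followed in Control at 30.8 and 29.4, which did not differ beyond the spread of their ovaries, and then Junb at 17.2, Dusp1 at 17.0 and Nr4a1 at 12.03. Fos lay at 7.11, Atf3 at 3.10, Egr2 at 2.08 and Fosb at 0.682 in Control. The order differed in the old ovaries, where Dusp1 was in the second place of the Aged group at 44.3 and Nr4a1 reached 26.2 in Aged+CF. These ranks depend on the gene length used. By the median of the deposited FPKM, Dusp1 in Aged (20.9) was below Ier2 (26.6) and Junb (25.7), and in Control Junb (22.7) was above Egr1 (18.2). Fosb was the least abundant in all 3 groups, with medians of 0.535 in Aged and 1.50 in Aged+CF.

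Among the AP-1 genes, Fos (chromosome 12, 85473890 to 85477273, plus strand) separated the Aged ovaries from both other groups. Its level was 19.2, 51.8, 14.2 and 14.3 CPM in Control 31, 32, 33 and 34. It was 6.14, 7.90 and 9.81 CPM in Aged 31, 33 and 34, and 36.5, 10.8 and 17.9 CPM in Aged+CF 30, 32 and 34. Every Aged ovary was below every ovary of the other groups, and the distance from the highest Aged ovary to the lowest Aged+CF ovary was small. The Aged level was 0.321 of Control, a log2 fold change of -1.64 (SE 0.55, 95% interval -2.87 to -0.41, edgeR adjusted p = 0.0708). Aged+CF stood 2.73-fold above Aged, a log2 fold change of 1.45 (SE 0.57, 95% interval 0.17 to 2.73, edgeR adjusted p = 0.262). Fos thus passed a fold of 1.5 at unadjusted p under 0.05 in both comparisons, which share the Aged ovaries, and at adjusted p in neither.

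Fosb (chromosome 7, 19302696 to 19310051, minus strand) varied more among the Control ovaries, relative to its mean, than any other member apart from Nr4a1. Its level was 6.19, 38.6, 2.33 and 1.696 CPM in the Control ovaries, in the order used above. It was 3.34, 2.12 and 5.02 CPM in Aged, and 9.35, 4.60 and 14.9 CPM in Aged+CF. The Aged range lay inside the Control range, and Aged+CF 32 was below Aged 34. Against Control, Aged had a log2 fold change of -1.79 (SE 1.01, edgeR adjusted p = 0.261), but one of 0.0469 once Control 32 was left out. Against Aged, Aged+CF had one of 1.46 (SE 1.05, edgeR adjusted p = 0.511).

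Jun (chromosome 4, 95049034 to 95052222, minus strand) was the AP-1 gene for which every old ovary exceeded 3 of the 4 Control ovaries. Its level was 162.9, 266.5, 120.0 and 119.2 CPM in Control, 192.7, 227.9 and 259.5 CPM in Aged, and 222.9, 273.3 and 245.9 CPM in Aged+CF. All 6 old ovaries were above Control 31, 33 and 34, and Control 32 was above all but Aged+CF 32. With all ovaries, the log2 fold change in Aged vs Control was 0.44 (SE 0.26, edgeR adjusted p = 0.280). Without Control 32 it was 0.76 (SE 0.16, edgeR adjusted p = 0.0344). That ovary was left out for the members' high levels in it, Jun among them, so this p is not an even test. The noncoding gene Junos overlaps Jun on the opposite strand, and since the strand setting of the counting is not given in the sources used here, reads of the pair cannot be told apart.

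Junb (chromosome 8, 84974484 to 84978718, minus strand) was uniform within Aged, and each Aged+CF ovary lay above that group. Its level was 46.7, 160.6, 30.4 and 32.6 CPM in Control, 48.0, 41.0 and 47.6 CPM in Aged, and 86.2, 68.0 and 63.2 CPM in Aged+CF. No Aged+CF ovary overlapped with Aged, and only Control 32 exceeded Aged+CF. The log2 fold change in Aged+CF vs Aged was 0.67 with an SE of 0.55 (edgeR adjusted p = 0.567), because all 10 ovaries share 1 estimate of the spread in the fit. With Control 32 left out the fold change was the same, 0.67, and its SE was 0.18 (edgeR adjusted p = 0.228). The opposite-strand gene Prdx2 overlaps Junb, so its counts carry the same uncertainty as those of Jun.

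Atf3 (chromosome 1, 191170296 to 191218039, minus strand), a stress-induced partner of Jun proteins, followed another pattern. Its level was 6.83, 7.36, 6.03 and 6.52 CPM in Control, the narrowest Control range of the members, and Control 32 was within 1.14-fold of the mean of the others. It was 7.04, 5.86 and 22.1 CPM in Aged and 7.57, 10.1 and 10.3 CPM in Aged+CF. Aged 34 was 3.43 times the mean of the other Aged ovaries, and the Aged+CF ovaries were all above Control. In Aged vs Control the log2 fold change was 0.81 (SE 0.40, edgeR adjusted p = 0.195), and without Aged 34 it was -0.01. Between Aged+CF and Aged it was -0.33 (SE 0.42, edgeR adjusted p = 0.722), and without Aged 34 it was 0.51 (SE 0.19, edgeR adjusted p = 0.149). Aged 34 is the ovary with the high B and plasma cell and oviduct markers, and their part in its Atf3 level was not tested.

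**Figure D2:**
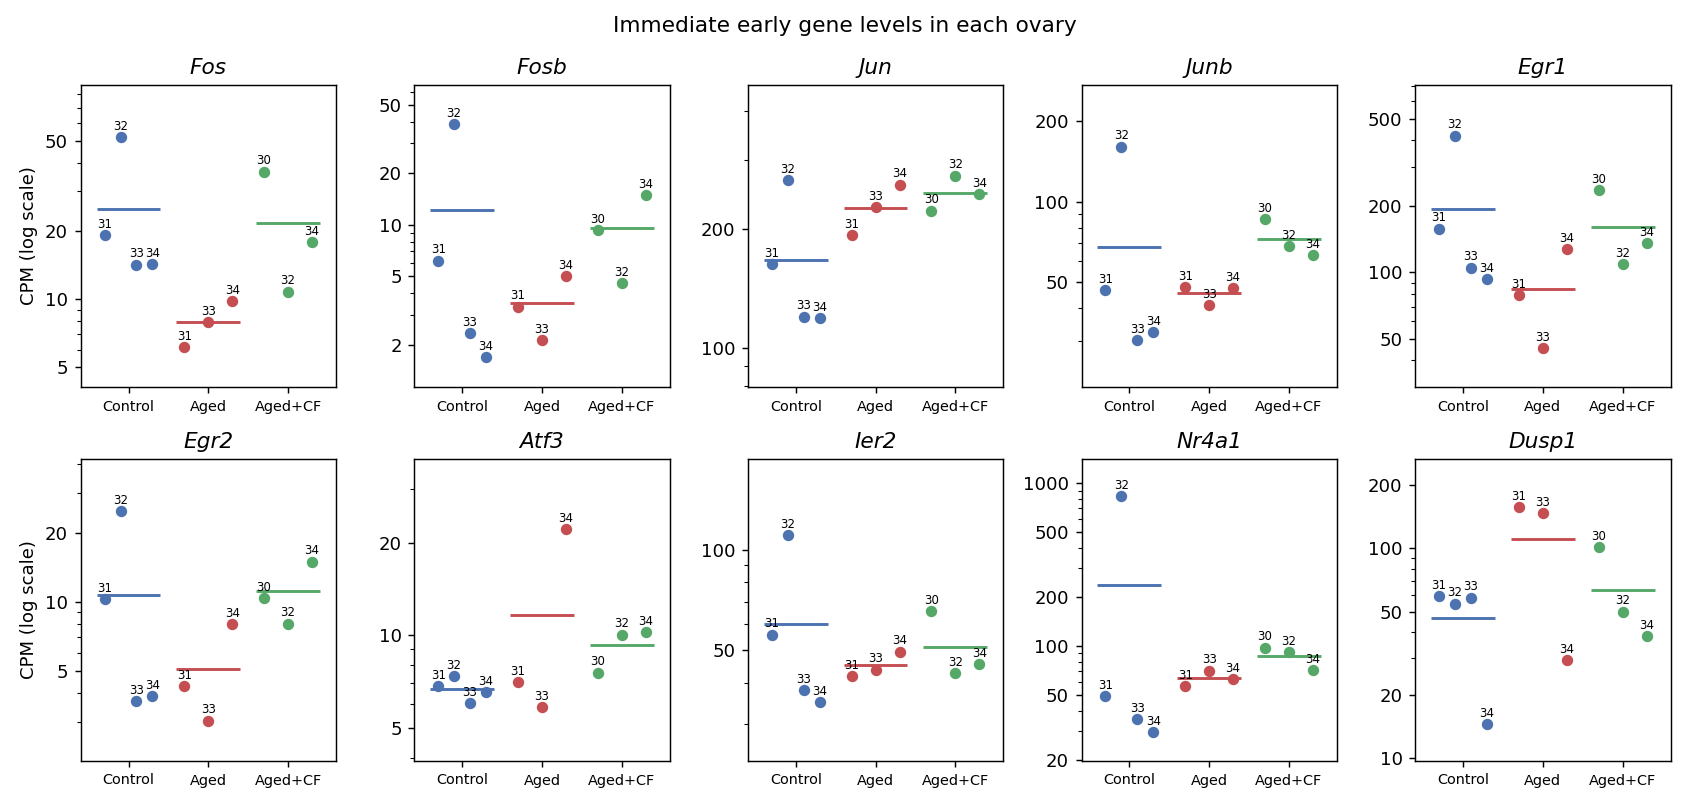
CPM on a log scale for each of the 10 genes, with 1 point per ovary labelled by its replicate number and a line at each group's mean. In 9 of the 10 panels Control 32 is the highest Control point, and for Fos, Junb, Egr2 and Nr4a1 the Aged+CF points all lie above the Aged points.

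Of the zinc finger genes, Egr1 was the more abundant. Its level was 158.3, 418.4, 105.3 and 93.0 CPM in Control, 78.9, 45.2 and 127.7 CPM in Aged, and 237.0, 109.2 and 136.0 CPM in Aged+CF. Control 32 was again the highest ovary, and Aged 34 reached the range of the other groups while Aged 31 and Aged 33 were below all other ovaries. Against Control, the log2 fold change of Aged was -1.21 (SE 0.56, edgeR adjusted p = 0.176), and that of Aged+CF against Aged was 0.94 (SE 0.59, edgeR adjusted p = 0.450). Without Control 32 the first was -0.50 (SE 0.41, edgeR adjusted p = 0.471).

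Egr2 (chromosome 10, 67535475 to 67542188, plus strand) was less abundant per length than Egr1 in every group. Its level was 10.3, 24.8, 3.70 and 3.87 CPM in Control, 4.30, 3.03 and 8.00 CPM in Aged, and 10.4, 8.04 and 15.0 CPM in Aged+CF. All Aged+CF ovaries were above all Aged ovaries, by a narrow margin between Aged+CF 32 and Aged 34. The log2 fold change in Aged+CF vs Aged was 1.12 (SE 0.69, edgeR adjusted p = 0.443). In Aged vs Control it was -1.05 (SE 0.66, edgeR adjusted p = 0.310), and without Control 32 it was -0.21.

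Nr4a1 (chromosome 15, 101254269 to 101274795, plus strand) gave the widest spread. Control 32 held 13325 reads of it, whereas the other Control ovaries held 558 to 840. Its level was 49.0, 830.7, 35.4 and 29.6 CPM in Control, 57.0, 70.5 and 62.6 CPM in Aged, and 97.8, 91.8 and 71.1 CPM in Aged+CF. Leaving Control 32 aside, the 3 groups did not overlap and lay in the order Control, Aged, Aged+CF. With all ovaries the log2 fold change in Aged vs Control was -1.90 (SE 1.10, edgeR adjusted p = 0.270), and without Control 32 it had the opposite sign, 0.74 (SE 0.20, edgeR adjusted p = 0.0561). The same happened in Aged+CF vs Control, where it was -1.44 (SE 1.07, edgeR adjusted p = 0.567) with and 1.19 (SE 0.20, edgeR adjusted p = 0.138) without that ovary. A single ovary therefore set the direction of Nr4a1 against Control, and in Aged+CF vs Aged the log2 fold change was 0.45 either way.

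Ier2 (chromosome 8, 84661331 to 84662852, minus strand) overlapped between all groups. Its level was 55.7, 110.8, 37.9 and 34.9 CPM in Control, 41.9, 43.7 and 49.6 CPM in Aged, and 65.7, 42.7 and 45.5 CPM in Aged+CF. Control 32 was the highest ovary, and the others ran from Control 34 up to Aged+CF 30. Aged differed from Control by -0.41 on the log2 scale (SE 0.36, edgeR adjusted p = 0.486), and without Control 32 by 0.07 (SE 0.22, edgeR adjusted p = 0.867). Aged+CF differed from Aged by 0.19, with a 95% interval of -0.67 to 1.05 (edgeR adjusted p = 0.839).

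Dusp1 (chromosome 17, 26505590 to 26562128, minus strand), the feedback phosphatase, did not follow the transcription factors. Its level was 59.3, 54.6, 58.2 and 14.6 CPM in Control, 157.4, 146.7 and 29.4 CPM in Aged, and 101.4, 50.03 and 38.3 CPM in Aged+CF. Control 32 was unremarkable here, Control 34 was far below the other Control ovaries, and Aged 34 was at 0.194 of the mean of Aged 31 and Aged 33. Aged 31 and Aged 33 were the highest of the 10 ovaries. The log2 fold change in Aged vs Control was 1.25 (SE 0.61, edgeR adjusted p = 0.190). With Aged 34 left out it was 1.74 (SE 0.50, edgeR adjusted p = 0.0349). Aged 34 stands apart by its Dusp1 level itself, so the p without it is not an even test. With Aged 31 left out instead, the log2 fold change was 0.95 (SE 0.69, edgeR adjusted p = 0.401). Aged+CF differed from Aged by -0.81 (SE 0.65, edgeR adjusted p = 0.554) on the log2 scale with Aged 34 and by -1.28 (SE 0.54, edgeR adjusted p = 0.186) without it. The GENCODE gene overlaps 4 others, Ergic1 among them, so part of its count can belong to them. Luteal and theca markers also differed between these ovaries. The summed level of 3 luteal markers was 2360, 4473 and 755.1 CPM in Aged, 231.4 to 844.4 CPM in Control and 1964, 4647 and 1341 CPM in Aged+CF. That of 5 theca markers was 16470, 22190 and 9961 CPM in Aged, 2772 to 6579 CPM in Control and 7148, 11210 and 7086 CPM in Aged+CF. Cyp11a1 alone made up 10050, 13670 and 6506 CPM of the theca sum in Aged, so the sum does not speak for every theca marker. Insl3 was lower in Aged, at 3.28, 4.16 and 3.64 CPM against 6.24 to 14.37 CPM in Control. Cyp17a1 was at 16.9, 145.9 and 504.3 CPM in Aged. None of these markers was at 0 in any ovary. Aged+CF 32 thus had the highest luteal sum of all ovaries, with Dusp1 at 50.03 CPM. Star, a theca marker here that carries cholesterol into mitochondria, was at 4434, 6510 and 1157 CPM in Aged and 1526, 3065 and 942.5 CPM in Aged+CF. It was lowest of all ovaries in Control 34, at 187.3 CPM. The part of luteal and theca cells in the Dusp1 level was not tested.

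The first comparison asked what age does to these genes. In Aged ovaries, Fos was lower than in Control by unadjusted p, and the point estimates were below 0 for Fosb, Junb, Egr1, Egr2, Ier2 and Nr4a1 and above 0 for Jun, Atf3 and Dusp1. By edgeR, 0 of 10 members passed a fold of 1.5 at adjusted p under 0.05, where 11.1% of all genes did, and 1 of 10 (Fos) passed at unadjusted p, where 18.2% did. Without Aged 31, Fos was not called at unadjusted p (log2 fold change -1.45, SE 0.66) and the 1 member called was Atf3, against 18.5% of all genes. DESeq2's Wald test called 1 member at adjusted p, which was Fos (adjusted p = 0.0114), against 14.6% of all genes, and 4 at unadjusted p, against 18.7%, where Egr1, Atf3 and Dusp1 were added. Aged and Control did not overlap for 1 of 10 members, against 27.5% of all genes. Over the members, the median log2 fold change was -0.81, where over the genes tested it was -0.000525. Both the sign of this median and the balance of directions rested on Control 32: without it the median was 0.20 (0.00605 over the genes tested), with 7 members above 0 and 3 below.
Without Control 32, edgeR called 1 member at adjusted p (Jun, higher in Aged), against 5.74% of all genes, and 3 at unadjusted p (Fos, Jun and Nr4a1), against 16.2%. Without Aged 34 it called Dusp1 at adjusted p, against 16.1%, and Fos, Egr1 and Dusp1 at unadjusted p, against 22.1%, and without Control 34 it called Fos, Fosb and Egr1 at unadjusted p, against 16.3%. Control 32 and Aged 34 stand apart by the members' own levels. The adjusted calls of Jun and Dusp1 without them are therefore not even tests. With Control 32 left out, Aged and Control did not overlap for Fos, Jun and Nr4a1, 3 of 10 members, against 31% of all genes. Fos was lower in the Aged ovaries with and without Control 32, at log2 fold changes of -1.64 and -0.997 (SE 0.40, edgeR adjusted p = 0.155 without it).

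**Figure D3:**
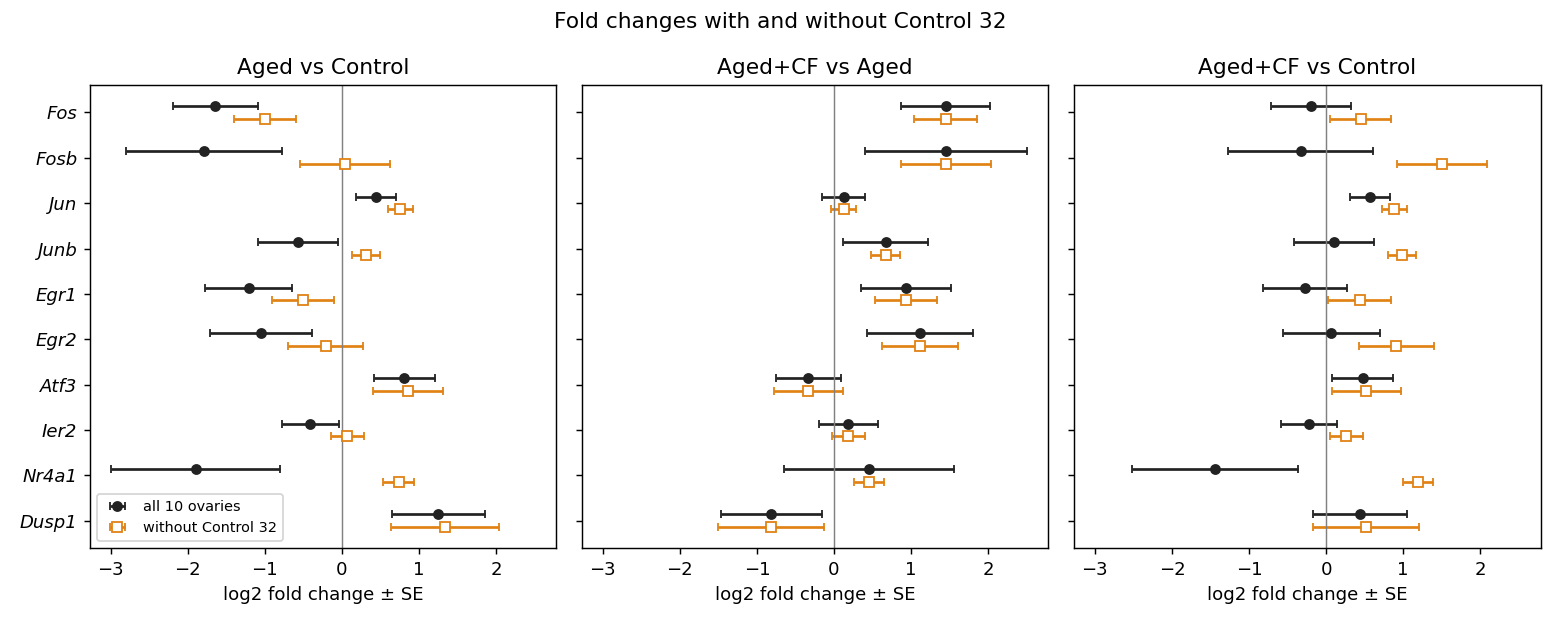
Log2 fold changes with their SE for the 10 genes in the 3 comparisons, from all 10 ovaries (filled circles) and without Control 32 (open squares). In the comparisons with Control the squares lie to the right of the circles, most of all for Nr4a1 and Fosb, while in Aged+CF vs Aged both markers coincide and the error bars of Fosb, Junb and Nr4a1 are shorter without Control 32.

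The second comparison asked whether CEFFE treatment went with another level of these genes in old ovaries. Fos was higher in Aged+CF than in Aged by unadjusted p, and the estimates were above 0 for Fosb, Jun, Junb, Egr1, Egr2, Ier2 and Nr4a1 as well and below 0 for Atf3 and Dusp1. By edgeR, 0 of 10 members passed at adjusted p, where 0.00528% of all genes did, and 1 of 10 (Fos) at unadjusted p, where 7.96% did, and DESeq2's Wald test also called 0 and 1 (Fos), where 2.33% and 8.42% of all genes passed. The groups did not overlap for 4 of 10 members, Fos, Junb, Egr2 and Nr4a1, each higher in Aged+CF, against 18.6% of all genes. For Egr2 the gap was only from 8.00 to 8.04 CPM, and for Nr4a1 from 70.5 to 71.1 CPM. The 4 also moved together: their pairwise Pearson r, taken on deviations from the group means, ran from 0.739 to 0.973. They are therefore not separate results. The median log2 fold change was 0.56 over the members and -0.02 over all genes tested. Control 32 takes no part in this comparison except through the shared estimate of spread. When it was left out of the fit, the fold changes were the same. By edgeR, 5 of 10 members were then called at unadjusted p (Fos, Fosb, Junb, Egr1 and Egr2), against 7.39% of all genes, and 0 at adjusted p. Control 32 was left out for the members' high levels in it, which also widened their spread. This count and the share of all genes are therefore not a like comparison. Fos was not called at unadjusted p without Aged 31, Aged 33 or Aged+CF 30, and its estimate without Aged+CF 30 was 0.84 on the log2 scale.

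In Aged+CF vs Control, the distance of the treated old ovaries from the young ones, edgeR called 0 of 10 members at adjusted p, where 0.179% of all genes passed, and 0 at unadjusted p, where 7.69% passed. DESeq2's Wald test called 0 and 1, the latter being Jun, where 2.79% and 8.4% of all genes passed. Jun came closest in edgeR too, with a log2 fold change of 0.57 (SE 0.26, edgeR adjusted p = 0.361). For Fos it was -0.19, with a 95% interval of -1.35 to 0.96, so levels from 0.392 to 1.95 times that of Control were within the error. Atf3 was the 1 member of 10 without overlap, against 21.9% of genes. Without Control 32, Jun, Junb, Atf3 and Nr4a1 were higher in every Aged+CF ovary than in every Control ovary, 4 of 10 members against 25.1% of genes. Without it, edgeR called Fosb, Jun, Junb and Nr4a1 at unadjusted p, against 5.57% of all genes, and 0 members at adjusted p, against 0.0638%. These counts, too, come from leaving out an ovary chosen for the members' own values. All 10 estimates were then above 0 with a median of 0.70, where with all ovaries 5 were above and 5 below 0 with a median of -0.06 (-0.02 and -0.03 over the genes tested). Without Control 32 the log2 fold changes of the 4 called were 1.51 for Fosb (SE 0.58), 0.88 for Jun (SE 0.16), 0.99 for Junb (SE 0.18) and 1.19 for Nr4a1 (SE 0.20).

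Other genes of the response were then read from lists. Of 48 tested immediate early genes outside the members, 9 were at least 2-fold higher in Control 32 than the mean of the other Control ovaries, against 1.37% of all genes tested. The list's median ratio was 1.36 where that of all genes was 1.01. The genes named next were chosen for their values there. Nr4a3 stood at 11.6 times that mean and Nr4a2 at 5.22 times, so all members of the NR4A receptor family were high in Control 32, as were Sik1 (6.66), a kinase of cAMP signalling, the antiproliferative gene Btg2 (4.87) and Gadd45b (3.40). Crem, itself a target of cAMP signalling, was at 2.47 and was the 1 gene of 25 upstream kinases and factors past 2-fold. Of 14 heat shock genes, 0 were past 2-fold.
Among 13 ovulatory genes, 3 passed 2-fold in Control 32, against 1.37% of all genes tested. The list's median ratio was 1.09, and others of it were below the mean of the other Control ovaries, among them Pgr (0.85), Ptx3 (0.82) and Runx2 (0.52). The EGF-like ligand Areg was at 26.1 CPM in Control 32 and at 0, 1.12 and 0.159 CPM in Control 31, 33 and 34. Its relative Ereg was at 28.4 CPM, against 0.642, 1.37 and 0.901 CPM. The prostaglandin synthase Ptgs2 was at the low level of 1.56 CPM, 3.09 times the mean of the others. Areg and Ereg are known to be induced in granulosa cells by the ovulatory signal. The granulosa marker Cyp19a1, the aromatase of oestrogen synthesis, was also highest in Control 32, at 350.8 CPM against 26.6, 86.0 and 59.4 CPM. It was the 1 of 8 granulosa markers past 2-fold, against 1.37% of all genes tested, and their median ratio was 1.26. The summed granulosa markers were highest there at 7224 CPM, against 4318, 6026 and 5939 CPM in Control 31, 33 and 34. How far the immediate early genes of Control 32 moved with these values was not tested.

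**Figure D4:**
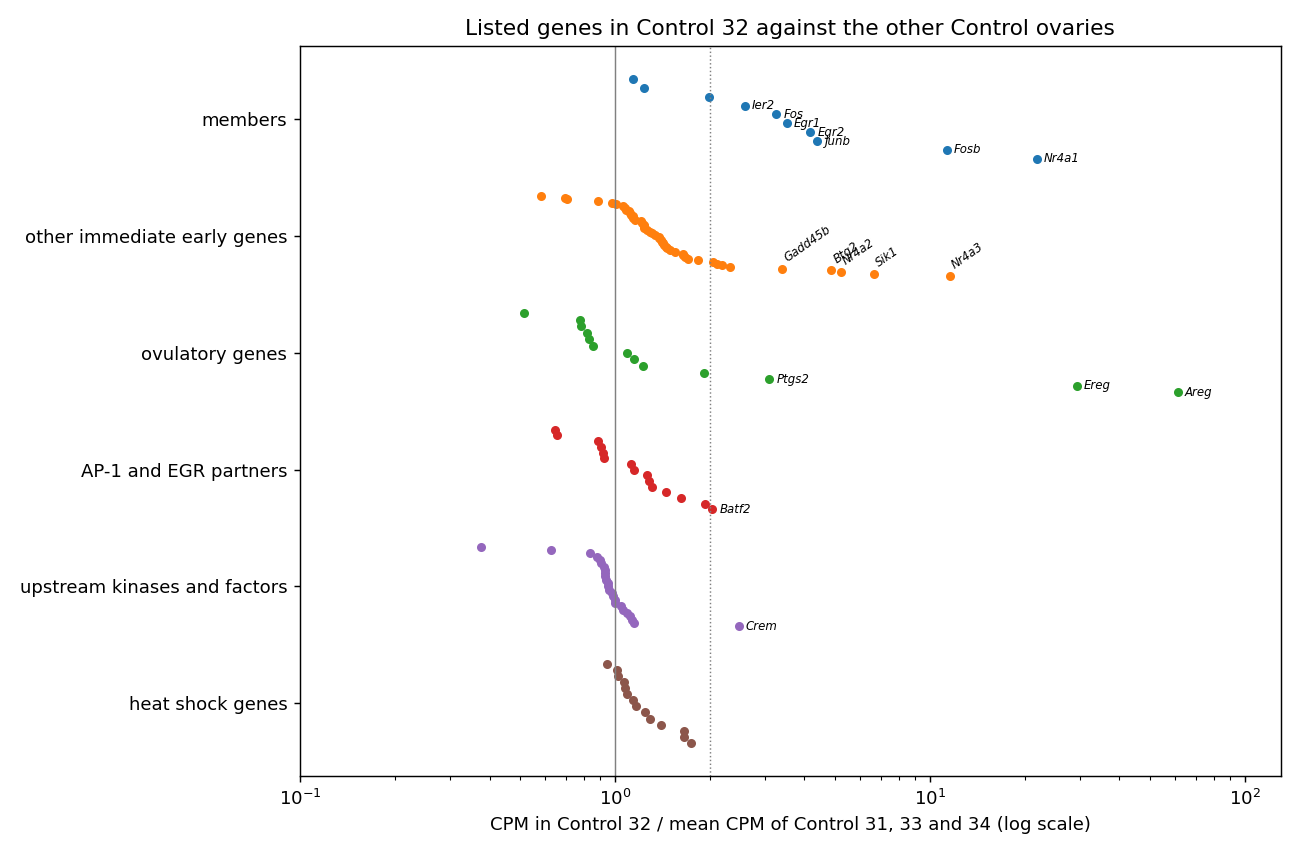
Ratio of the CPM in Control 32 to the mean CPM of Control 31, 33 and 34 (log axis), with 1 point per tested gene of each list, and lines at ratios of 1 (solid) and 2 (dotted). Of the members, 7 lie past the dotted line, while the heat shock genes all lie below it and the ovulatory genes Areg and Ereg have the highest ratios shown.

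Across the groups, edgeR called 2 of the 48 other immediate early genes at adjusted p in Aged vs Control, both higher: Sgk1, a serum- and hormone-induced kinase (log2 fold change 1.19, SE 0.27, adjusted p = 0.0195), and Gadd45a, a growth arrest gene (0.84, SE 0.24, adjusted p = 0.0415). At unadjusted p, 2 were higher and 3 lower, and the list's median was 0.05. Of all genes, 11.1% passed at adjusted and 18.2% at unadjusted p, larger shares than in this list. After CEFFE, against Aged, 0 were called at adjusted p, and 5 were higher and 2 lower at unadjusted p, with a median of -0.11. Of all genes, 0.00528% and 7.96% passed there. Ier3 was among the higher ones of the list (log2 fold change 0.96, SE 0.22, edgeR adjusted p = 0.161), whereas the endothelial factor Klf2 was among the lower (-0.77, edgeR adjusted p = 0.161). Against Control, 0 were called at adjusted p in Aged+CF (0.179% of all genes), and 4 were higher and 1 lower at unadjusted p (7.69% of all genes). Among the higher was the mRNA decay factor Zfp36 (0.79, edgeR adjusted p = 0.124). The other immediate early genes thus had no common direction.
Lists were also read for genes that the members' products work with or that act above them. Of 15 tested partners of AP-1 and EGR proteins, 0 were called by edgeR in any comparison at either p, where the shares of all genes are those given above (11.1%, 0.00528% and 0.179% at adjusted p). Of 25 upstream kinases and factors, 2 were called at adjusted p in Aged vs Control, a share near that of all genes, both higher: Mapk3, which encodes ERK1 (log2 fold change 0.79, adjusted p = 0.0132), and Prkaca, a catalytic subunit of protein kinase A (0.68, adjusted p = 0.0181). Between Aged+CF and Aged, only Mapk3 passed, at unadjusted p, with a log2 fold change of -0.60. Of 13 ovulatory genes, 2 were called at adjusted p in Aged vs Control, against 11.1% of all genes. These were the LH receptor Lhcgr and Rgcc, at log2 fold changes of 1.80 and 2.20 (edgeR adjusted p = 0.0127 and 0.0116). Lhcgr had a log2 fold change of -2.07 in Aged+CF vs Aged (edgeR adjusted p = 0.15). The heat shock genes, another stress response, had estimates above 0 for 14 of 14 in Aged vs Control and below 0 for 14 of 14 in Aged+CF vs Aged. These comparisons share the Aged ovaries. At adjusted p 0 were called, and at unadjusted p 2 and 4, where 18.2% and 7.96% of all genes passed. The medians of the heat shock genes were 0.37 and -0.46.

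The genes whose pattern over the 10 ovaries was most like the average of the members were sought among 13110 genes with a mean of at least 5 CPM. Btg2 came first, with a Pearson r of 0.93 and a Spearman rho of 0.95 between its log2 CPM and the average standardized level of the members. Without Control 32 and Control 34, the ovaries farthest from the median, its r was 0.88. Its level was 40.3, 167.8, 32.5 and 30.5 CPM in Control, 34.9, 31.96 and 48.7 CPM in Aged, and 61.1, 33.7 and 55.9 CPM in Aged+CF. Caskin2 followed at an r of 0.89 (0.82 without those ovaries), although its CPM ranged only from 90.6 to 101.3, then Egln3 at 0.84 (0.58), Plk3 at 0.84 (0.64) and E4f1 at 0.84 (0.40). These are descriptions over 10 ovaries that share their libraries with the members. For Egln3, Plk3 and E4f1 the r fell most without Control 32 and Control 34, so part of their likeness rested on those ovaries, most for E4f1. Their Spearman rho over the 10 ovaries was 0.68, 0.77 and 0.70.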

How the data were processed

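The data are RNA-seq libraries of 10 mouse ovaries, 1 per ovary. For every gene, the authors deposited raw counts of reads and FPKM values computed from them (count divided by a gene length and by the library's total). The submitters' processing notes name TopHat, Cufflinks 2.1.1 and GRCm38.p4. The counting tool, annotation and strand setting are not given in the sources used here. Groups and replicate numbers were taken from the labels. Of 55487 genes, 18869 had no count in any ovary. No pair of libraries of a group was a duplicate.

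Counts were analysed in R 4.3.3 with edgeR 4.0.16: genes were filtered by group (18956 left), libraries scaled by TMM, and 1 quasi-likelihood model with 3 group means was fitted to all 10 ovaries. The 3 pairs of groups were compared with the quasi-likelihood F test, and p was adjusted by the Benjamini-Hochberg method over all genes tested. A call needed a fold of at least 1.5 with p under 0.05, adjusted as in the study's methods or unadjusted as in the series' design text. Neither source names the test used. FPKM was used only for a second ranking of the members and to derive the gene lengths behind it. These lengths differ from GENCODE M21 exon lengths by 0.786 to 2.65 times, so levels of different genes were compared mainly as CPM divided by the GENCODE length. Positions are GENCODE M21 on GRCm38.

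The members and lists were chosen with earlier results of these data known. Besides the members, up to 5 genes of each list were eligible to be named, those called at adjusted p first and otherwise at unadjusted p, in order of their smallest p, and the 5 genes outside the members most like their average. Genes of the lists that are named for their level in Control 32 were chosen after their values were seen. As alternatives, the Wald test of DESeq2 1.42.0 replaced edgeR, DESeq2's size factors replaced TMM, the low-count filter was dropped, the third group was left out of the model, a block for the replicate number was added, and ovaries were left out 1 at a time. Ratios of an ovary to others are of CPM and have no test.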

Additional observations from a re-analysis of the deposited data

Results flagged for a closer look

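Within the 4 Control ovaries, 5 of the 10 genes had an ovary far from the others by Dixon's test, which divides the gap to the nearest ovary by the whole range and compares it with a 95% critical value. Control 32 was high for Nr4a1, at a ratio of 0.976, for Fosb at 0.878, for Junb at 0.875 and for Fos at 0.867. Control 34 was low for Dusp1, at 0.895. Of all genes tested, 6.38% exceeded the critical value in Control, where chance gives about 1 in 20. The high values come from 1 library and are not independent of each other. The groups of 3 ovaries were not tested.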

How the results depend on the processing

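The shares in brackets are those of all genes tested under the same setting. With no filter on low counts, 3 members were called at unadjusted p in Aged vs Control (12.5%), in place of 1. DESeq2's Wald test called 1 at adjusted (14.6%) and 4 at unadjusted p there (18.7%), and 1 at unadjusted p between Aged+CF and Control (8.4%), in place of 0, and gave no p for Nr4a1. With DESeq2's size factors, 1 was called at unadjusted p in Aged+CF vs Control (7.59%). With only the compared groups in the fit, 4 were called at unadjusted p in Aged+CF vs Aged (5.6%), in place of 1. Leaving out each ovary in turn, the members called in Aged vs Control ranged from 0 to 1 at adjusted p (1 without Control 32 or Aged 34) and from 1 to 3 at unadjusted p (3 without Control 32, Control 34 or Aged 34, and 1, Atf3 in place of Fos, without Aged 31). At unadjusted p they ranged from 0 to 5 in Aged+CF vs Aged (5 without Control 32, 0 without Aged 31, Aged 33 or Aged+CF 30) and from 0 to 4 in Aged+CF vs Control (4 without Control 32). At adjusted p, 0 members were called in Aged+CF vs Aged and in Aged+CF vs Control under every alternative run.

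The replicate numbers did not pair the ovaries: ovaries with the same number had correlations of their deviations from -0.185 to 0.153, and not every ovary correlated best with its own number. With the number as a replicate block, 3 members were called at unadjusted p in Aged vs Control (15.7%) and 0 when Aged+CF was compared with Aged (4.68%), where Fos had a log2 fold change of 0.32 (SE 0.61) in place of 1.45, and over all genes 80 in place of 2096 were called at adjusted p in Aged vs Control. The block turned the sign of Junb (0.12) and Nr4a1 (0.31) in Aged vs Control, of Jun (-0.19), Junb (-0.18), Egr1 (-0.0853), Ier2 (-0.46) and Nr4a1 (-0.92) in Aged+CF vs Aged, and of Fosb (0.0498), Junb (-0.0643) and Egr2 (-0.0697) in Aged+CF vs Control. With the block, the members' median log2 fold change in Aged vs Control was 0.03, with 5 members above and 5 below 0. In Aged+CF vs Aged it was -0.19, with 3 above and 7 below 0. The cause of these changes was not tested.

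Leaving out 1 ovary also turned signs. In Aged vs Control the log2 fold change ranged from -2.16 to 0.0469 for Fosb, -0.81 to 0.32 for Junb, -0.0126 to 1.15 for Atf3, -0.60 to 0.0730 for Ier2 and -2.27 to 0.74 for Nr4a1. Between Aged+CF and Aged it ranged from -0.64 to 0.51 for Atf3 and -0.0415 to 0.30 for Ier2. Between Aged+CF and Control it ranged from -0.77 to 0.45 for Fos, -0.77 to 1.51 for Fosb, -0.14 to 0.99 for Junb, -0.63 to 0.43 for Egr1, -0.22 to 0.91 for Egr2, -0.41 to 0.26 for Ier2, -1.81 to 1.19 for Nr4a1 and -0.0568 to 0.72 for Dusp1. Leaving out Control 32 turned the sign of Fosb, Junb, Ier2 and Nr4a1 in the first comparison and of Fos, Fosb, Egr1, Ier2 and Nr4a1 in the last. Aged 34 did so for Atf3, Aged+CF 30 for Ier2 in the second comparison and Dusp1, and several ovaries for Junb and Egr2 in the last, where the estimates were near 0. Under the alternatives, 415 fold changes of single members kept their direction and their side of the adjusted threshold, 32 turned their sign and 3 passed the adjusted threshold only there. At unadjusted p, 5 calls, all of Fos, were lost and 31 were gained.

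Between 15761789 and 21318254 reads per ovary gave each member at least 30 reads, so the spread between ovaries, with 3 or 4 a group, limits the precision more than the depth.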
